A study of Rattus norvegicus with 6 samples.

Results

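The sirtuin genes of the rat, Sirt1 to Sirt7, were examined in NRK-52E cells, an established line of epithelial cells from normal rat kidney, after treatment with streptozotocin (STZ), a DNA-alkylating nitrosourea. The members were the rows of the deposited count table that carry one of the 7 symbols, and each symbol named exactly 1 of the 18930 rows. The groups were wild-type cells given vehicle (Control, 3 samples) and wild-type cells kept in 10 mM STZ for 24 h before RNA was extracted (STZ, 3 samples). STZ was dissolved in dimethyl sulfoxide. All samples come from the same line, and neither the labels nor the methods say whether replicates were separate cultures, so p-values measure the spread between these samples, which may be technical. The comparison asked which transcripts differ between STZ-treated and vehicle-treated cells.

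Sirtuins are enzymes that use NAD as a co-substrate to remove acetyl or longer acyl groups from lysine residues. They are sorted by place. Sirt1, Sirt6 and Sirt7 act mainly in the nucleus, Sirt2 mainly in the cytosol, and Sirt3, Sirt4 and Sirt5 in mitochondria. Because they need NAD, they share their co-substrate with poly(ADP-ribose) polymerases, which consume NAD at broken DNA, and strand breaks are a known effect of STZ. Renal tubular cells hold many mitochondria, and Sirt1 and Sirt3 have been studied there for roles in stress resistance.

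Total counts lay between 10430924 and 15191349 reads per sample, and the 7 genes together held 2983 to 4275 reads in a sample. Levels are given as CPM, the reads of a gene relative to the total of its library, after TMM scaling with factors from 0.988 to 1.02. All 7 were among the 11870 genes that passed edgeR's filter on low counts. The label of a kidney epithelial cell was checked against markers. Krt8, an epithelial keratin, was at 1149 CPM in Control and 1604 in STZ, whereas Krt18 reached no more than 3 reads and the epithelial cadherin Cdh1 was at 2.58 CPM in Control. Krt7 was at 1.36 CPM in Control. Of the 6 epithelial markers, 4 had a row, and Epcam and Krt19 had none. Of 11 tubule markers, 8 had a row and 1 passed the filter, Aqp1, the water channel of the proximal tubule, at 13.1 CPM in Control and 5.43 in STZ. The other 7 had at most 10 reads in a sample. Of 5 fibroblast markers, Col1a1 was at 30.3 CPM and Pdgfrb at 19.6 CPM in Control, whereas Col1a2, Pdgfra and Thy1 had at most 4 reads in a sample. The endothelial markers had at most 9 reads. Of 3 leukocyte markers, Cd68 was at 1.44 CPM in Control and 1.91 in STZ, and Ptprc and Adgre1 had at most 1 read in a sample. The part of any of these markers in the sirtuin values was not tested.

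The promoters of the sirtuins whose transcripts differed between the groups are shown to place these genes, with that of Sirt1 beside them because its transcript level was nearly equal in the groups. The sequences are from RefSeq on the GRCr8 build, which is not the build the authors mapped to. A promoter was listed for 6 of the 7 genes, Sirt6 being the one without an entry. Each stretch is written 5′ to 3′ on the strand of the gene. It ends at the base before the annotated start and leaves out bases inside a neighbouring gene whose edge falls there. A gene spanning the whole stretch was not left out. Capitals mark motifs searched on both strands, as named after the sequences.
Sirt2 (chr1:93181388-93181471, plus strand): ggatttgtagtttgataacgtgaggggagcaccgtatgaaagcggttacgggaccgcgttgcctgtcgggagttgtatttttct
Sirt7 (chr10:106401499-106401632, minus strand): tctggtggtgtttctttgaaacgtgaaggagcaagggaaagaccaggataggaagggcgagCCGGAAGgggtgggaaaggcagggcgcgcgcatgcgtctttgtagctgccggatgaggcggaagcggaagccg
Sirt5 (chr17:21543057-21543306, minus strand): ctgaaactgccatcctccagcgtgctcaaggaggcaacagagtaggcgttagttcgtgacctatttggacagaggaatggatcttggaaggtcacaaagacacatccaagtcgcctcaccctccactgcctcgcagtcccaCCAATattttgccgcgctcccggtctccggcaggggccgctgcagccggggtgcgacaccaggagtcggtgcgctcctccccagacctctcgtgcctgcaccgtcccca
Sirt1 (chr20:25305703-25305952, plus strand): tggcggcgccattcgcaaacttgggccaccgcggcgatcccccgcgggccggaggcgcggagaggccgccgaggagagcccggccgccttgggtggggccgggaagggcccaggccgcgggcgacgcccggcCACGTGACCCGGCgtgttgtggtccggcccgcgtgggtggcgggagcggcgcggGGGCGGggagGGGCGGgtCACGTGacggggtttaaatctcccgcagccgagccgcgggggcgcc

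The 84 bases before Sirt2 are the whole gap between its start and that of Nfkbib, which is read in the opposite direction, and they hold none of the motifs searched. Farther out, inside Nfkbib, the Sirt2 window holds CCAAT at 2 places. In Sirt7 the capitals mark the ETS core CCGGAAG, and a second copy spans its start. The gene annotation leaves 5 bases between Sirt7 and its neighbour Mafg. Most of the 134 bases shown, the ETS core among them, thus lie within the annotated span of Sirt7. In the window of 250 bases before and 50 after the start, CCGGAAG occurred in Sirt7 alone of the 6 sirtuins listed, against 8.75% of 33469 promoters. In Sirt5 the capitals mark CCAAT, which was found in 3 of the 6 sirtuins and in 37.5% of all promoters. In Sirt1 they mark the GC box GGGCGG, the E-box CACGTG and the antioxidant response element TGACNNNGC. This element overlaps the first E-box, so that both stand in 1 run of capitals. The GC box occurred in 3 of the 6 sirtuins and in 33.1% of all promoters, the E-box in 1 of 6 and 6.42%, and the antioxidant response element in 1 of 6 and 12.1%. The p53 half-site was found in Sirt4, just after the start, and in 7.98% of all promoters. TATAAA (14.2% of all promoters), the CRE TGACGTCA (1.83%) and the NRF1 motif (0.852%) were found in 0 of 6. A match to such letters is a description of the window and not a binding site. The Sirt1 window was the richest in G and C of the 6, at 78.7%, and held 47 CpG pairs. The median of all promoters was 51.7% and 7 CpG pairs, and the other sirtuins lay between 49.7% and 63.3%, with 19 to 23 CpG pairs.

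Of the 7 sirtuins, Sirt2 and Sirt7 rose and Sirt5 fell in STZ-treated cells at an adjusted p under 0.05 from the quasi-likelihood F test of edgeR, adjusted by Benjamini-Hochberg over all genes tested. Sirt1, Sirt3, Sirt4 and Sirt6 did not pass. In the same test 50.9% of the 11870 genes passed, 25.9% higher and 25.1% lower, so that 2 higher and 1 lower of 7 lies near the share of all genes. The changes were small. The widest was a factor of 1.26, for Sirt7, and 0 of the 7 reached the limit of 1 on the log2 scale that the study's methods add, which 3.37% of genes passed. The median log2 fold change was 0.00 over the sirtuins and -0.01 over all genes. An absolute log2 fold change wider than that of Sirt7 was found in 27.8% of genes.

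**Figure D1:**
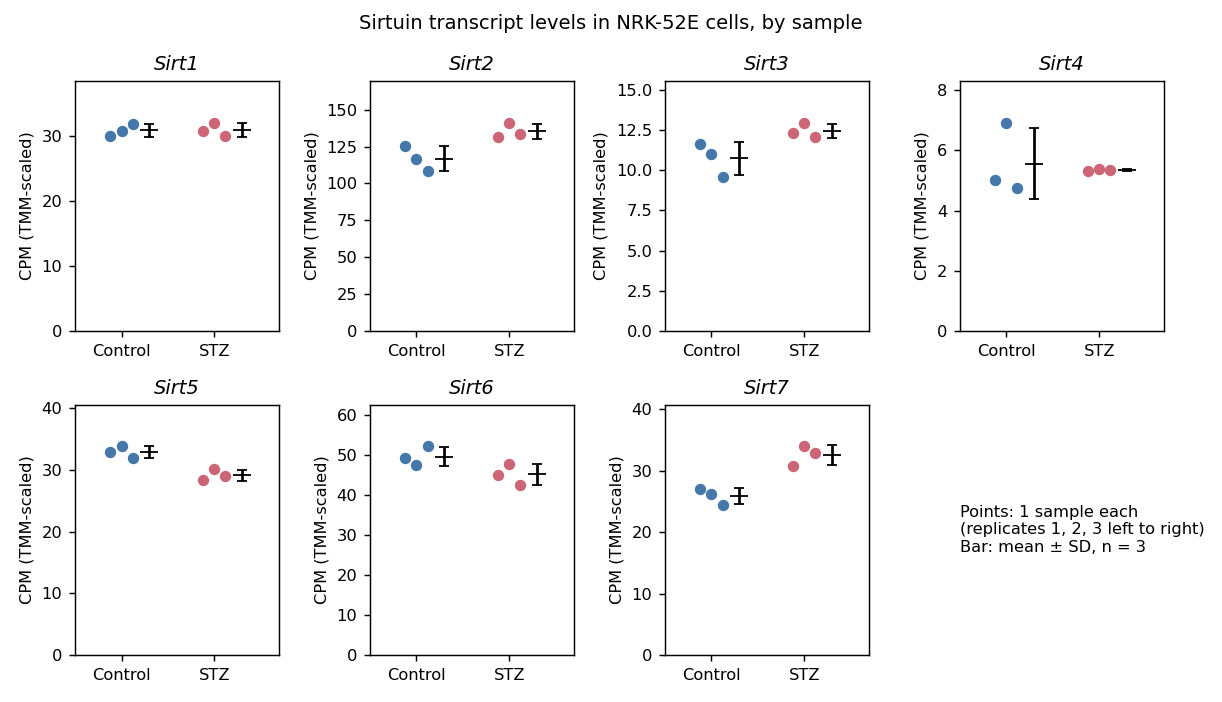
Level of each sirtuin in CPM (vertical axis, from 0, scaled per panel) in the 3 Control samples (blue) and the 3 STZ samples (red), with bars for mean ± SD (n = 3). The groups are apart for Sirt2, Sirt3 and Sirt7, with STZ higher, and for Sirt5, with STZ lower, and they overlap for Sirt1, Sirt4 and Sirt6.

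Among the nuclear sirtuins, Sirt7 rose, and neither Sirt1 nor Sirt6 passed the test. Sirt7 is found in the nucleolus, where it is tied to transcription of ribosomal DNA, and it removes an acetyl mark from histone H3. It was at 27.1, 26.2 and 24.4 CPM in Control replicates 1, 2 and 3, and at 30.7, 34.0 and 33.0 CPM in STZ replicates 1, 2 and 3. Every STZ sample lay above every Control sample, and groups apart in this direction were found in 28.6% of all genes. The mean was 25.9 ± 1.35 CPM in Control and 32.6 ± 1.65 CPM in STZ (SD, n = 3 each). The log2 fold change was 0.33 (standard error 0.07, 95% interval 0.18 to 0.48, adjusted p = 2.11e-04 by edgeR), the smallest p-value of the 7. These levels rested on 287 to 313 reads in the Control samples and 391 to 494 in the STZ samples.

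Sirt1, the best known sirtuin, deacetylates p53, FOXO factors and the NF-kB subunit encoded by Rela. Its levels were 30.0, 30.7 and 31.9 CPM in Control replicates 1 to 3, and 30.7, 32.1 and 30.0 CPM in STZ replicates 1 to 3. The groups overlapped almost fully. The log2 fold change was 0.00, with a 95% interval from -0.14 to 0.14 (adjusted p = 0.990 by edgeR), which leaves out a rise of the size measured for Sirt2 or Sirt7. A wider absolute log2 fold change was found in 99.6% of genes. Sirt6, a chromatin-bound enzyme that takes part in DNA repair and in the control of glycolytic genes, was at 49.3, 47.5 and 52.2 CPM in Control and at 45.1, 47.9 and 42.7 CPM in STZ. STZ replicate 2 lay above Control replicate 2, and the other samples were apart. Its log2 fold change of -0.14 (standard error 0.06, 95% interval -0.27 to -0.02) had an adjusted p of 0.0512 by edgeR, just over the threshold. The adjusted p was between 0.0155 and 0.407 over 17 other settings, under 0.05 in 6 of them, and the value stayed negative in all 17.

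Sirt2, the cytosolic sirtuin, deacetylates alpha-tubulin and mitotic regulators and enters the nucleus at mitosis. It gave the most reads of the family, 1278 to 1996 per sample. Its levels were 125, 116 and 109 CPM in Control replicates 1 to 3 and 132, 141 and 133 CPM in STZ replicates 1 to 3. The groups did not overlap, and the nearest pair was Control replicate 1 and STZ replicate 1. The mean rose from 117 ± 8.34 to 135 ± 5.10 CPM (SD, n = 3 each). The log2 fold change was 0.21 (standard error 0.05, 95% interval 0.12 to 0.31, adjusted p = 2.21e-04 by edgeR), a difference of 16.0%. Over the 17 other settings the log2 fold change was 0.16 to 0.27 for Sirt2 and 0.29 to 0.38 for Sirt7, and each passed the threshold in all 17.

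The mitochondrial sirtuins did not move as a group. Sirt5, which removes succinyl, malonyl and glutaryl groups from mitochondrial and cytosolic enzymes, fell. It was at 33.0, 33.8 and 32.0 CPM in Control replicates 1 to 3 and at 28.4, 30.1 and 29.0 CPM in STZ replicates 1 to 3. Every STZ sample lay under every Control sample, as in 27.7% of all genes. The mean was 32.9 ± 0.930 CPM in Control and 29.2 ± 0.884 CPM in STZ (SD, n = 3 each), and the log2 fold change was -0.18 (standard error 0.07, 95% interval -0.32 to -0.03, adjusted p = 0.0338 by edgeR). The call rested on the setting. The adjusted p was over 0.05 in 8 of 17 other settings. These were DESeq2's Wald test (0.109), no filter (0.0538), 2 of 3 random draws that thinned libraries to the smallest total (0.148 and 0.0514, against 0.0402 in the third draw) and the fits without Control replicate 1 (0.0646), Control replicate 2 (0.102), STZ replicate 1 (0.110) or STZ replicate 3 (0.0801). The value stayed between -0.21 and -0.14 in all 17.

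Sirt3, the main deacetylase of mitochondria, had a log2 fold change of 0.22, close to that of Sirt2, but from 121 to 181 reads per sample. Its levels were 11.6, 11.0 and 9.59 CPM in Control replicates 1 to 3 and 12.3, 12.9 and 12.1 CPM in STZ replicates 1 to 3. The groups did not overlap. The interval from -0.01 to 0.44 reached past 0, the adjusted p was 0.108 by edgeR, and it was 0.0707 to 0.393 over the other settings, with the value positive in all 17. Sirt4, a mitochondrial enzyme with lipoamidase and ADP-ribosyltransferase activity, had the fewest reads, 53 to 80 per sample. It was at 5.00, 6.91 and 4.76 CPM in Control and at 5.31, 5.39 and 5.34 CPM in STZ. Control replicate 2 stood above the rest, and the other 5 samples lay close together. The log2 fold change was -0.05 with a 95% interval from -0.38 to 0.29 (adjusted p = 0.829 by edgeR), and it was 0.13 without Control replicate 2. This interval includes changes of the size seen in Sirt2 or Sirt5.

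**Figure D2:**
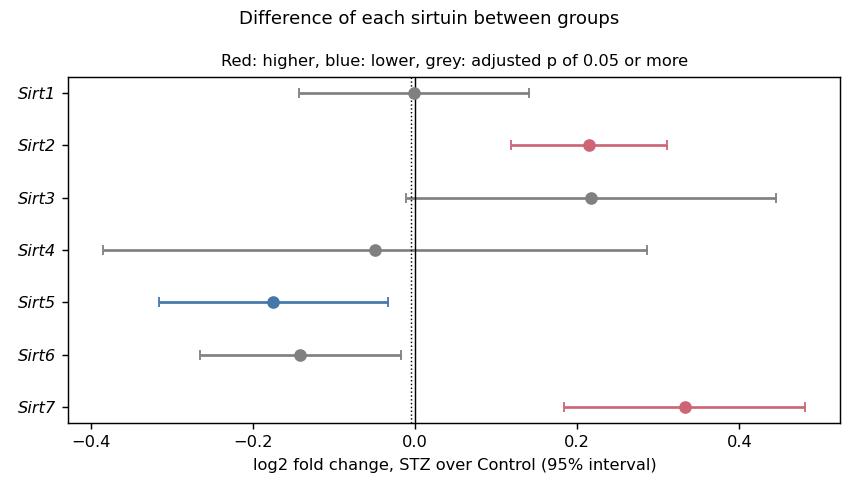
Log2 fold change of each sirtuin, STZ over Control (horizontal axis), with its 95% interval from the edgeR fit; the dotted line is the median of all 11870 genes. The intervals of Sirt2 and Sirt7 lie to the right of 0 and those of Sirt5 and Sirt6 to the left, and that of Sirt4 is the widest.

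**Figure D3:**
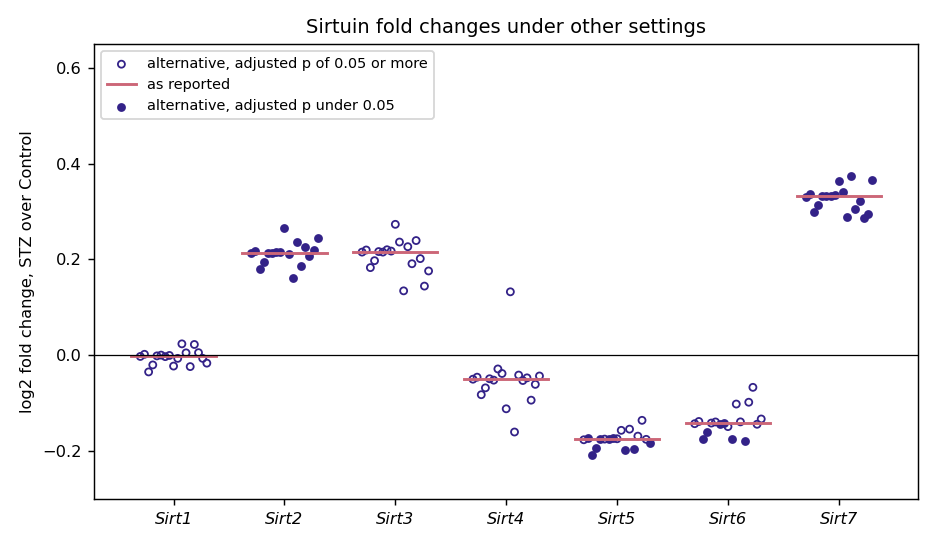
Log2 fold change of each sirtuin, STZ over Control (vertical axis), as reported (red line) and under 17 other settings (circles, filled where the adjusted p was under 0.05). Sirt2 and Sirt7 are filled throughout, Sirt5 and Sirt6 are mixed, Sirt3 is open throughout, and Sirt1 and Sirt4 lie about 0.

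Summed over the 7 genes, the level was 272 ± 8.86 CPM in Control and 291 ± 10.8 CPM in STZ (SD, n = 3 each), a ratio of 1.07. The mean of Sirt2 alone went from 117 to 135 CPM, and the means of the other genes differed in both directions. The family was also read as shares of its own reads within each sample, where library scaling plays no part. Because the reads of a gene also depend on the length of its transcript, these shares compare samples and not genes. Sirt2 held 42.8% ± 1.67 of the family's reads in Control and 46.5% ± 0.199 in STZ (SD, n = 3 each). The share of Sirt7 was 9.50% ± 0.205 in Control and 11.2% ± 0.369 in STZ. The share of Sirt5 was 12.1% ± 0.345 in Control and 10.0% ± 0.112 in STZ, and that of Sirt6 was 18.3% ± 1.36 and 15.5% ± 0.498. Sirt3 held 3.94% ± 0.258 in Control and 4.27% ± 0.0447 in STZ. In these 5 genes the samples of the groups did not overlap, and in Sirt1 and Sirt4 they did. In CPM, the groups were apart in 28.6% of all genes with STZ higher and in 27.7% with STZ lower, and those of Sirt6 overlapped. Shares within a sample add up to a fixed total, so a higher share of Sirt2 means a lower share for the other genes together. An exact two-sided permutation test of 3 samples against 3 cannot go below p = 0.1, and the shares are given without a test. Sirt5 had more reads than Sirt7 in every Control sample, 1.22, 1.29 and 1.31 times as many, and fewer in every STZ sample, 0.924, 0.888 and 0.879 times as many. This pair was chosen after the values were seen, as the member that fell and the member with the widest rise. Of the 21 pairs of sirtuins, 13 had read ratios that did not overlap between the groups. The share of such pairs over all genes was not computed, and the 21 pairs reuse the same 7 genes. The count is thus no result about the family.

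**Figure D4:**
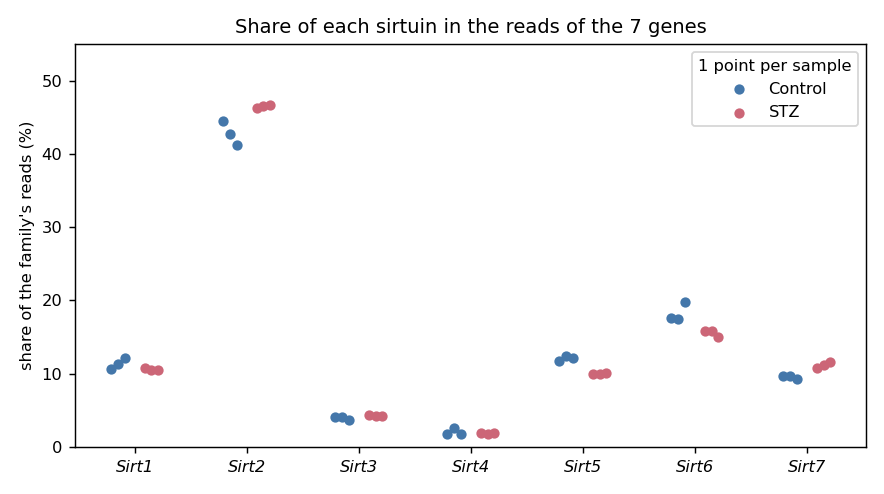
Share of each sirtuin in the reads of the 7 genes within a sample, in percent (vertical axis), with 1 point per Control sample (blue) and STZ sample (red). The STZ samples lie above the Control samples for Sirt2, Sirt3 and Sirt7 and under them for Sirt5 and Sirt6, and the groups overlap for Sirt1 and Sirt4.

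The genes beside the sirtuins in the GRCr8 gene table were read for comparison. Sirt7 stands between Pcyt2 and Mafg, all read in the same direction. Pcyt2, an enzyme of phosphatidylethanolamine synthesis that lies just downstream of Sirt7, was higher in STZ with a log2 fold change of 0.43 (adjusted p = 1.04e-11 by edgeR). Mafg, a small Maf protein that pairs with Nrf2 and lies just upstream, was lower with a log2 fold change of -0.17 (adjusted p = 2.42e-03 by edgeR). For Sirt2, the head-to-head neighbour Nfkbib, an inhibitor of NF-kB, did not pass, at 0.09 on the log2 scale (standard error 0.09, adjusted p = 0.441 by edgeR). Psmd13, a proteasome subunit whose start faces that of Sirt3, and Ric8a on the other side had log2 fold changes of -0.02 and 0.00. Herc4 beside Sirt1 and Nol7 beside Sirt5 were at 0.02 and 0.03, and these 4 did not pass. Ankrd24 beside Sirt6 was lower, with a log2 fold change of -0.37 (adjusted p = 9.31e-03 by edgeR). In that annotation Sirt2 overlaps the unnamed gene LOC103689966 and Sirt4 a pair of snRNA genes. The libraries were made with a stranded kit, but it is not given whether the counting used the strand, and reads of overlapping or touching genes may be mixed.

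Over the 6 samples, Polh, a translesion polymerase, Nid2, a basement membrane protein, and Zfp346 had the log2 CPM most like that of Sirt7. Pearson's r was 0.999 for Polh, 0.999 for Nid2 and 0.997 for Zfp346, and 429 genes had an r over 0.95. With 3 samples in each of 2 groups, such a value describes mostly the shared difference between the groups. The log2 fold changes of these 3 genes were 0.36, 0.34 and 0.37.

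Genes around the sirtuins were described by lists, each against the share of all genes given above (25.9% higher, 25.1% lower). By its calls on transcript level, the list of NAD supply did not move one way. The list includes Nnmt, which acts against supply, so its rise is not a gain of supply. Of 20 genes, 13 had a row and 11 were tested, with 2 higher and 2 lower in STZ. Only 1 was higher with DESeq2 and without Control replicate 3, STZ replicate 1 or STZ replicate 2. Nampt, the rate-limiting enzyme of NAD salvage from nicotinamide, fell from 183 to 131 CPM, with log2 fold change -0.48 (standard error 0.04, adjusted p = 1.72e-12 by edgeR). Nadsyn1, which makes NAD in the last step of the routes from nicotinic acid and tryptophan, fell by 0.53 on the log2 scale (adjusted p = 4.45e-05 by edgeR). Nnmt, which methylates nicotinamide and so takes it out of salvage, rose from 3.07 to 6.87 CPM, a log2 fold change of 1.14 (adjusted p = 6.4e-07 by edgeR). Nmrk1, a nicotinamide riboside kinase, rose from 1.75 to 2.86 CPM (log2 fold change 0.69, adjusted p = 0.0216 by edgeR) and had at most 43 reads in a sample. The 11 genes had a median log2 fold change of -0.09. Their summed level was 488 to 504 CPM in the Control samples and 433 to 437 CPM in the STZ samples, with Nampt among the most abundant.

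Of 18 other enzymes that consume NAD, 15 were tested, and 8 were higher and 2 lower. Only 5 were higher when libraries were scaled by their size alone, with DESeq2 and without STZ replicate 1, and 5 to 8 over all 17 other settings. Parp1, the main polymerase activated by strand breaks, fell from 199 to 148 CPM and had the smallest p-value of the lower genes (log2 fold change -0.42, standard error 0.04, adjusted p = 2.75e-11 by edgeR). Parp3, a DNA-break responsive member, rose from 117 to 160 CPM and had the smallest p-value of the higher genes (log2 fold change 0.45, standard error 0.04, adjusted p = 1.08e-11 by edgeR). The median of the list was 0.12.

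The zinc-dependent deacetylases remove acetyl groups without NAD. Of 11, 9 were tested and 0 passed both limits. Hdac7 fell with a log2 fold change of -0.29 (adjusted p = 2.52e-07 by edgeR) and Hdac2 with -0.18 (adjusted p = 1.06e-03). Hdac1 was higher by 0.11 on the log2 scale (adjusted p = 0.0149 by edgeR), and 0 of the list were higher with scaling by library size alone and without Control replicate 1, STZ replicate 1 or STZ replicate 3. The lysine acetyltransferases, which write the marks that deacetylases remove, were all tested. Of the 10, 7 were lower and 0 higher (25.1% and 25.9% over all genes), with a median log2 fold change of -0.22. Kat2a, the catalytic subunit of SAGA-type complexes, had the smallest p-value, with 69.1 CPM in Control and 47.7 CPM in STZ (log2 fold change -0.54, standard error 0.06, adjusted p = 7e-11 by edgeR). The 3 that did not pass were Kat2b (-0.09), Kat6b (0.04) and Hat1 (0.07).

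Regulators of Sirt1 were tested for 7 of 9 genes, with 0 higher (1 without Control replicate 3) and 3 lower. Ctbp1, a corepressor that acts on the Sirt1 promoter, had the smallest p-value (log2 fold change -0.34, adjusted p = 2.2e-09 by edgeR). Ccar2, which binds and inhibits Sirt1, and Senp1, which removes SUMO from it, were the other 2, with log2 fold changes of -0.24 and -0.27. Both were named after their values were seen. Of 21 genes of nuclear sirtuin substrates and partners, 20 were tested. Of these, 3 were higher and 13 lower (25.9% and 25.1% over all genes), with a median log2 fold change of -0.19. Notch1 had the smallest p-value of the higher (0.62, adjusted p = 8.05e-14 by edgeR) and Parp1 of the lower genes. Ep300, Foxo1, Foxo3 and Parp1 each stand in 2 lists.

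For Sirt2 substrates, 10 of 12 were tested, with 2 higher and 4 lower. Tuba1c, an alpha-tubulin, was the higher gene with the smallest p-value (log2 fold change 0.36, adjusted p = 3.49e-11 by edgeR), and Acly, the enzyme that makes cytosolic acetyl-CoA, the lower one (-0.78, adjusted p = 1.49e-20). Alpha-tubulin genes are close copies, so their uniquely mapped reads are uncertain. Of 20 mitochondrial substrates, 14 were tested, with 4 higher, 4 lower and a median log2 fold change of 0.00. Acadvl, which starts the oxidation of very long chain fatty acids, was the higher gene with the smallest p-value (0.53, adjusted p = 1.27e-12 by edgeR). Slc25a5, an ADP/ATP carrier, was the lower one (-0.52, adjusted p = 3.25e-13 by edgeR). These are transcript levels relative to all RNA in the library, and neither RNA per cell, protein, NAD nor lysine acylation was measured in these files.

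**Figure D5:**
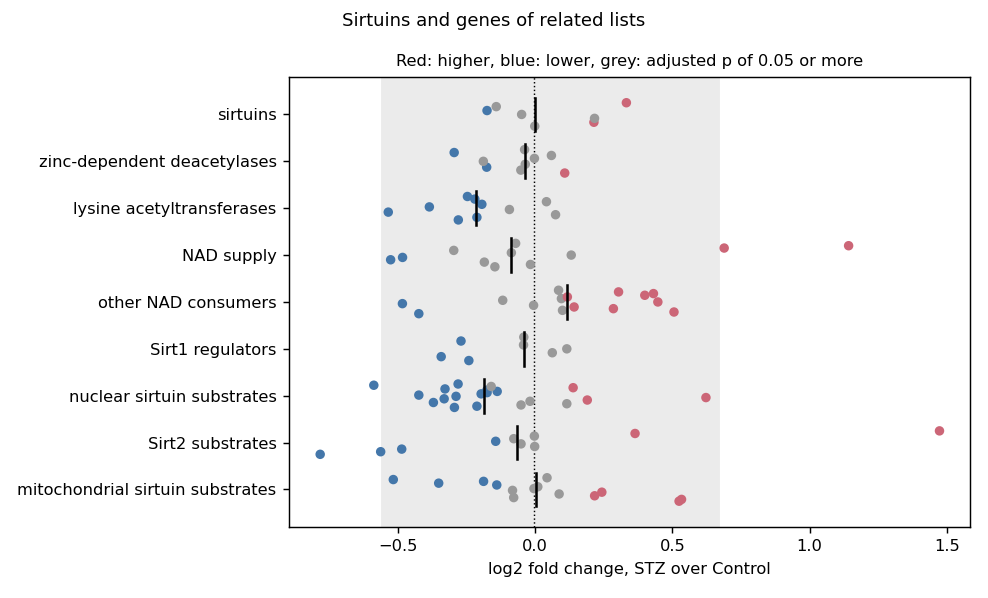
Log2 fold change, STZ over Control (horizontal axis), of the tested genes in each list (1 point per gene, red higher, blue lower, grey not past the threshold), with the list median as a black bar. The grey band spans the 5th to 95th percentile of all genes (-0.56 to 0.67) and the dotted line is their median; the 7 sirtuins lie inside the band.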

How the data were processed

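RNA of NRK-52E cells, 3 Control and 3 STZ samples, was sequenced from stranded mRNA libraries. The authors aligned single-end reads with STAR 2.7.10a to Rnor6, used featureCounts on the uniquely mapped reads, and deposited the counts of each gene without normalization. The version of featureCounts and its strand setting are not given in the sources used here. Columns were assigned by the sample labels, with the replicate numbers these carry.

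The whole table was fitted with edgeR 4.0.16 (R 4.3.3), using TMM, filterByExpr and the quasi-likelihood F test. Benjamini-Hochberg adjustment ran over 11870 genes. A gene was called at an adjusted p under 0.05, and the further limit of the study, an absolute log2 fold change over 1, is given beside it. Standard errors were derived from the F statistic, as the size of the log2 fold change over the root of F. The alternatives were 2 other filters, 3 other scalings, DESeq2 1.42.0, limma-voom (limma 3.58.1), a replicate block, each sample left out, and libraries thinned to 10430924 reads, in 3 random draws. The third draw used the seed that was run first, and the other 2 were run later, after seeing the data. The steps were tested on simulated counts. Those held wider changes than the sirtuins, in fewer genes than were called here, and do not bear on changes of this size.

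Members and lists were chosen with earlier results of these data known. The genes named are the 7 sirtuins; in each list the gene with the smallest p among those higher and those lower; every called gene of NAD supply and of the zinc-dependent deacetylases; the tested neighbours of each sirtuin; and the 3 genes most like the sirtuin with the smallest p, among those with a symbol and at least 50 normalized counts. Slc25a51 was matched by its older symbol. Markers are named for the check of the cell type. Per-length shares of the family had been planned, but no transcript lengths of the authors' annotation were at hand, so shares of reads are given.

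No library looked like a copy of another: between replicates, chi-square over its degrees of freedom was at least 1.85. Sirt4 had the fewest reads of the sirtuins and the largest standard error, 0.17. Promoter sequences were read from RefSeq tables (GRCr8).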

Additional observations from a re-analysis of the deposited data

How the results depend on the processing

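The log2 fold changes of the 7 sirtuins were recomputed under 17 other settings each, 119 values in all. Of these, 98 had the same direction and call, 8 lost the call, 6 gained it and 7 changed sign, all 7 in Sirt1 or Sirt4, which passed under none. Sirt2, Sirt3 and Sirt7 had the same direction and call in all 17.

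The number of sirtuins that rose, 2, was 2 under each setting except with the log2 fold change limit of 1, where it was 0. The number that fell, 1, was 0 with that limit, 0 with no filter, 0 with DESeq2's Wald test and 0 in 2 of 3 random draws of thinned libraries, with 1 in the other draw. The draws are numbered as listed. Draw 3 used the seed that was run first, and draws 1 and 2 were run later, after seeing the data. The 3 draws show that the call of Sirt5 turns on the draw. The number that fell was 2 with library size only, 2 with the upper quartile, 2 with limma-voom and 2 with the replicate block. It was 0 to 2 over the fits without 1 sample. Sirt5 lost its call with no filter (-0.18), with DESeq2 (-0.18) and in 2 draws of thinned libraries (-0.14 and -0.18), kept it in the other draw (-0.18), and ranged from -0.20 to -0.15 over the fits without 1 sample. Sirt6 gained a call with library size only (-0.18), the upper quartile (-0.16), limma-voom (-0.14) and the replicate block (-0.14), and ranged from -0.18 to -0.10 over those fits. Sirt1 was 0.0020 when every sample had to reach 10 counts, 3e-04 with DESeq2, 0.0054 in the first draw of thinned libraries, and -0.0237 to 0.0238 over those fits. Sirt4 ranged from -0.16 to 0.13 over them, the highest value without Control replicate 2. The cause of these changes was not tested. With the limit of 1, 400 genes were called, against 6046 without it. The median of all genes moved from -0.01 to -0.04 with library size only, and the share of calls that were higher from 50.8% to 43.3%.

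Control and STZ samples share replicate numbers. Deviations of same-numbered samples from their group means had correlations of 0.0319, -0.0389 and 0.102 over 10341 genes, so a shared number was not taken as a pairing. The replicate block called 6199 genes, Sirt6 passed (edgeR adjusted p = 0.0440), and no other sirtuin changed its call. The number of called genes in a list, both directions together, stayed within 1.5 times of the reported one under the 17 settings. By direction, the higher genes did not in 4 lists: other NAD consumers (8, at the lowest 5), NAD supply (2, at the lowest 1), zinc-dependent deacetylases (1, at the lowest 0) and Sirt1 regulators (0, at the highest 1). With the log2 fold change limit of 1, 0 or 1 gene of each list was called. Sirt4 had the fewest reads, at most 80 in a sample, and the widest interval of the sirtuins. The part of depth in this was not tested.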
